A study of Arabidopsis thaliana with 43 samples.

Results

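The genes described here are 4 YABBY genes, FIL (also YAB1, AT2G45190), YAB2 (AT1G08465), YAB3 (AT4G00180) and YAB5 (AT2G26580), and the leaf genes AS1 (AT2G37630) and AS2 (AT1G65620), 6 of the 32507 loci measured in the embryos of the thale cress Arabidopsis thaliana. They were chosen by name, as genes of the cotyledon and leaf blade, and their counts were summed over the transcripts of each locus. All embryos were wild-type Col-0, taken from plants 4 weeks old and pooled at 50 embryos a sample. Stages were preglobular (8 to 16 cells), globular, early heart, late heart, early torpedo, late torpedo, bent cotyledon and mature green, with 3 biological replicates each, all made with Smart-seq2, a low-input method that primes cDNA on the poly(A) tail and amplifies whole transcripts. Bent-cotyledon RNA was also diluted to 5, 1, 0.5 and 0.1 ng for Smart-seq2 and to these amounts and 0.05 ng for the Ovation and SMARTer kits. Levels over stages are CPM, estimated counts relative to the TMM-scaled library total, with bent cotyledon at 5 ng.

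YABBY proteins are seed-plant transcription factors with a zinc finger near one end and an HMG-like YABBY domain near the other. FIL, YAB2, YAB3 and YAB5 are known for their expression on the abaxial side, the future lower side, of cotyledons and leaves, where they promote growth of the blade and hold back meristem programmes, together with the co-repressors LUG, LUH and SEU. AS1 is a MYB-type protein and AS2 a LOB-domain protein. They bind each other and repress class 1 KNOX genes, regulators of the shoot meristem, in young leaves, and AS2 is known to act on the adaxial, or upper, side. Cotyledons emerge between the globular and heart stages. Each sample is a pool of whole embryos, so fewer cells that express a gene and less RNA per cell cannot be told apart.

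The 24 stage libraries held 8432892 to 35807605 estimated counts, at least 17769463 outside the bent-cotyledon stage. The summed level of 6 embryo markers ranged from 454.0 to 758.3 CPM at the preglobular and globular stages and from 98.0 to 112.7 CPM at bent cotyledon and mature green, where WOX8 had no counts at mature green. The summed level of 8 endosperm markers was 1.17 to 4.85 CPM up to bent cotyledon and 183.5 to 232.9 CPM at mature green, with EPR1 at 200.2 CPM on average and PHE1 and MINI3 at no counts there. That of 8 seed coat markers was 4.46 to 25.7 CPM over all stages. Early torpedo replicate 2 and mature green replicate 3 stood farther from their partners than any other libraries did, with chi-square values of 129 and 135 and of 86.0 and 87.8 per locus against 4.07 to 47.3 for the other pairs of stage libraries. At mature green the descriptions call each of the 3 replicates the first. If they came from 1 collection, the spread there leaves out that between collections.

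The genes are given by their place in assembly TAIR10.1. FIL lies on the minus strand at chr2:18628252-18630779 with up to 7 exons, YAB3 on the minus strand at chr4:72545-75576 with up to 7, YAB2 on the plus strand at chr1:2675813-2679824 with 6 and YAB5 on the minus strand at chr2:11303455-11307010 with up to 8. AS1 lies on the minus strand at chr2:15781232-15783480 with 2 exons and AS2 on the plus strand at chr1:24398143-24400989 with up to 3. The coding stretch below shows how far the 4 YABBY genes can be told apart by their reads. It is the in-frame stretch of 120 bases with the most identical bases, codes for part of the YABBY domain and is aligned without gaps. Capitals mark the 82 bases (68.3%) that are the same in all 4 genes, and the sequences are those of RefSeq on TAIR10.1, 5′ to 3′ on the coding strand.
FIL (coding bases 439 to 558): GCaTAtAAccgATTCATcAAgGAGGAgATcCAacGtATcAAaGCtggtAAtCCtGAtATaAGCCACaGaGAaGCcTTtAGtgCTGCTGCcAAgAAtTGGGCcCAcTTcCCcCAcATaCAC
YAB3 (coding bases 475 to 594): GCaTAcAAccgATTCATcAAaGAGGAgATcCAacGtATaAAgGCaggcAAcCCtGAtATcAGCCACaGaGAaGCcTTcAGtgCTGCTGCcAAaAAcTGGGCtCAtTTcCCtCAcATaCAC
YAB2 (coding bases 352 to 471): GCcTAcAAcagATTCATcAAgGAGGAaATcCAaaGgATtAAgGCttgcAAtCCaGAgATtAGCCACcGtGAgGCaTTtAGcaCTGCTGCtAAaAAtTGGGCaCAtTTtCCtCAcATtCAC
YAB5 (coding bases 331 to 450): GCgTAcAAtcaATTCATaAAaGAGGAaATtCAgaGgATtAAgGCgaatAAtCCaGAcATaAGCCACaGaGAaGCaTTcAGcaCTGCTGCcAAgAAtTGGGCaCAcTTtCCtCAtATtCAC
In this stretch FIL and YAB3 shared 106 bases (88.3%), and the other pairs shared 92 to 98 (76.7 to 81.7%). The longest run of identical coding bases was 19, between FIL and YAB5, and no stretch of 31 bases, the word length used here to look for shared sequence, occurred in more than 1 of the 6 genes. AS1 was the exception among the 6 in its surroundings: it overlaps ACT1 (AT2G37620), an actin gene on the opposite strand, by 330 bases, and 300 of its 1890 words (15.9%) also occurred in ACT1. The strand of the libraries is not given in the sources used here, so AS1 and ACT1 reads in the overlap cannot be told apart.

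The first rises of the 4 YABBY genes came in 2 pairs, FIL and YAB5 at globular and YAB2 and YAB3 at early heart. FIL, YAB5, AS1 and AS2 were detected in every preglobular library. AS1 and AS2 both rose from globular to early heart, and each also rose at a different step. From preglobular to globular, FIL, YAB5 and AS1 rose, 3 of the 6 genes, while 23.6% of the 21014 genes tested were called in either direction, 11.4% as higher and 12.2% as lower. A gene was called at a Benjamini-Hochberg adjusted p below 0.05 over all tested genes in edgeR's quasi-likelihood test. From globular to early heart FIL, YAB2, YAB3, AS1 and AS2 rose, 5 of 6, against 17.6% of all genes in either direction, 8.57% as higher and 9.03% as lower. From early to late heart YAB2 and YAB3 rose, 2 of 6 against 2.45% (1.22% as higher, 1.23% as lower), and from late heart to early torpedo AS2 alone of the 6 rose, against 19% (13.3% as higher, 5.76% as lower). Over the whole span from globular to late heart 5 genes rose and YAB5 fell, 6 of 6 against 33.8% of all genes (17.8% as higher, 16% as lower).

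From early to late torpedo none of the 6 was called, against 1.13% of all genes (0.666% as higher, 0.466% as lower). YAB2 and AS1 had an unadjusted p below 0.05 there, and DESeq2 called none. From late torpedo to bent cotyledon none was called, with 0 at an unadjusted p below 0.05 and 0 by DESeq2, while 33.3% of all genes were (13.7% as higher, 19.7% as lower). From bent cotyledon to mature green FIL, AS1 and AS2 fell, 3 of 6 against 55.4% (27.2% as higher, 28.2% as lower), and from late heart to mature green FIL and AS1 fell and YAB2 rose, 3 of 6 against 67% (32.6% as higher, 34.4% as lower). With 6 genes, neither count is read as a difference from all genes. With only the compared stages fitted, both counts were 5 of 6. A test for any difference among the 8 stages called all 6, as it did 91.1% of all genes. Neighbouring comparisons share a stage and are not independent of each other.

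**Figure D1:**
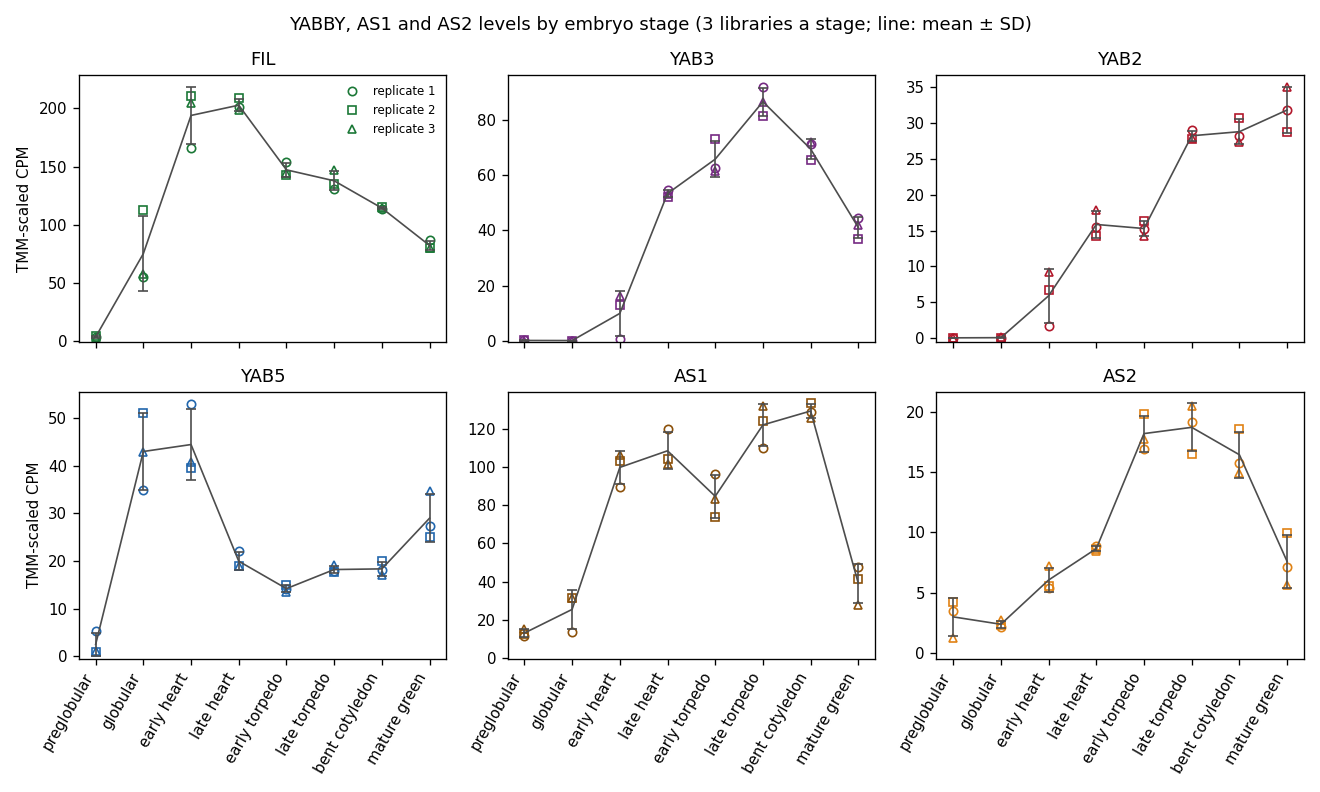
Levels of the 6 genes (vertical axes, TMM-scaled CPM, each panel with its own range) at the 8 embryo stages (horizontal axis). Symbols are the 3 libraries of a stage and the line joins the means ± SD. FIL is highest at early and late heart, YAB5 at globular and early heart, YAB3 at late torpedo, and YAB2 at the last 3 stages on this scale.

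FIL was detected in every library. It measured 3.49, 4.62 and 3.09 CPM in the preglobular libraries and 55.3, 112.4 and 58.0 CPM in the globular ones, so the groups did not overlap, and globular replicate 2 was the highest. The rise was 20.1-fold (log2 fold change 4.33, SE 0.22, adjusted p = 2.24e-10). At early heart the level was 166.2, 210.8 and 204.5 CPM, a further 2.57-fold rise above all globular libraries (log2 fold change 1.36, SE 0.19, adjusted p = 0.000102). It stayed at 201.0, 208.7 and 198.4 CPM at late heart, within the early-heart range (log2 fold change 0.06, SE 0.19, adjusted p = 0.998). Then each later mean was lower than the one before.

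From its highest mean of 202.7 ± 5.33 CPM (SD, n = 3) at late heart, FIL went to 153.9, 143.2 and 144.6 CPM at early torpedo, below all heart-stage libraries, though this step was not called (log2 fold change −0.46, SE 0.19, adjusted p = 0.0846; 0.0114 without globular replicate 2). It was called with only those stages fitted (adjusted p = 0.0329) and, at −0.92, on log2(TPM + 1) (limma, adjusted p = 0.00314). Late torpedo libraries held 131.1, 135.2 and 147.0 CPM and overlapped with early torpedo. Bent-cotyledon libraries held 113.3, 115.4 and 114.6 CPM, and mature green 87.0, 79.9 and 80.1 CPM, each group below the one before it. The last step was 1.39-fold (log2 fold change −0.48, SE 0.19, adjusted p = 0.0384), but it lost its call when any of the 3 bent-cotyledon or 3 mature green libraries was left out (adjusted p 0.0632 to 0.117), with RLE size factors (0.0642), with no filter (0.0771) and in DESeq2 (0.0557). The fall from late heart to mature green was 2.46-fold (log2 fold change −1.30, SE 0.19, adjusted p = 3.72e-06). On log2(TPM + 1) these last changes were −1.22 from bent cotyledon and −2.53 from late heart, both called (limma, adjusted p = 5.94e-05 and 1.25e-09), where the medians of all genes were −0.44 and −0.85.

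YAB5 rose with FIL at globular and was lower again by late heart. Preglobular libraries held 5.26, 0.986 and 1.17 CPM, with replicate 1 far above the other two, and globular libraries held 35.0, 51.0 and 42.9 CPM, all higher. The rise was 17.3-fold (log2 fold change 4.11, SE 0.37, adjusted p = 1.94e-07), and without preglobular replicate 1 the log2 fold change was 5.31. Early-heart libraries held 52.9, 39.6 and 40.8 CPM and overlapped with globular (log2 fold change 0.05, SE 0.31, adjusted p = 0.948).

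YAB5 then measured 22.1, 18.9 and 18.8 CPM at late heart, below every globular and early-heart library. The step from early heart missed the threshold (log2 fold change −1.15, SE 0.31, adjusted p = 0.0535), and it passed in DESeq2 (adjusted p = 0.0146) and without any 1 of 5 libraries of other stages, namely preglobular replicates 1, 2 and 3, early torpedo replicate 2 and mature green replicate 3 (adjusted p 0.000116 to 0.0407). With only the early- and late-heart libraries fitted it was called as well (log2 fold change −1.17, adjusted p = 0.00162), with no filter on low counts (0.0471) and on log2(TPM + 1) too (limma, 0.017). The fall from globular to late heart was called at 2.15-fold (log2 fold change −1.11, SE 0.31, adjusted p = 0.00953). On log2(TPM + 0.1) this fall was −0.88 and not called (limma, adjusted p = 0.0954). Early torpedo held 14.1, 14.9 and 13.5 CPM, the lowest after the preglobular stage (adjusted p = 0.274 from late heart; 0.0292 without preglobular replicate 1, 0.0462 with only those stages fitted and 0.0164 in limma on log2(TPM + 1)), and late torpedo 17.9, 17.6 and 19.1 CPM. Bent cotyledon held 18.1, 19.9 and 17.0 CPM. At mature green the 3 libraries, at 27.3, 25.0 and 34.6 CPM, lay above all bent-cotyledon ones, but the difference was not called (log2 fold change 0.66, SE 0.33, adjusted p = 0.0930; 0.00114 without preglobular replicate 1 and 0.043 without preglobular replicate 2). From late heart the log2 fold change was 0.54 (adjusted p = 0.14; 0.00349 without preglobular replicate 1). With only the compared stages fitted both were called as higher (adjusted p = 0.0116 from bent cotyledon and 0.0169 from late heart). On log2(TPM + 1) the sign turned for both, to −0.08 from bent cotyledon (limma, adjusted p = 0.848) and to −0.70 from late heart, which was called as lower (adjusted p = 0.033), where the medians of all genes were −0.44 and −0.85.

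YAB3, the gene closest to FIL in the stretch shown above and known to act redundantly with it, was nearly silent until the heart stages. It had 1, 1 and 0 counts in the preglobular libraries and 0 in all 3 globular ones. At early heart it measured 0.535, 13.0 and 16.0 CPM, at least 255-fold higher when the early-heart mean was set against 3 counts over the globular group (adjusted p = 8.97e-05). This bound leaves out the spread between the early-heart libraries. Replicate 1 held 20 counts and replicates 2 and 3 held 598 and 661. At late heart all 3 libraries were close together and higher, at 54.6, 52.3 and 53.3 CPM, at least 1380-fold above globular.

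The rise from early to late heart was 5.39-fold (log2 fold change 2.43, SE 0.54, adjusted p = 0.0191). Without early heart replicate 1 it was smaller and remained called (log2 fold change 1.88, adjusted p = 3.24e-06), and without any of the late-heart libraries in turn it was not called (adjusted p 0.0542 to 0.0671), nor with only the early- and late-heart libraries fitted (adjusted p = 0.0513). YAB3 reached 62.9, 73.4 and 61.5 CPM at early torpedo and 92.0, 81.7 and 86.7 CPM at late torpedo, its highest stage, with no overlap between these groups but no call (log2 fold change 0.40, SE 0.51, adjusted p = 0.842). Bent-cotyledon libraries held 71.3, 65.4 and 72.1 CPM and mature green 44.6, 36.8 and 41.8 CPM. All mature green libraries were lower than those of bent cotyledon, and this step was not called either (log2 fold change −0.76, SE 0.52, adjusted p = 0.232).

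The SE of YAB3 was above 0.5 on the log2 scale at every step, beside 0.19 for FIL after the globular stage. Leaving out early heart replicate 1 turned its step from bent cotyledon to mature green into a call at the same size (log2 fold change −0.76, adjusted p = 5.81e-05). The same held from late heart to mature green (log2 fold change −0.38, adjusted p = 0.0128). Both were also called with only the compared stages fitted (adjusted p = 0.00286 and 0.0238) and on log2(TPM + 1), at −1.46 and −1.59 (limma, adjusted p = 0.0161 and 0.0075).

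YAB2 came on with YAB3 and, unlike it, had its highest mean in scaled CPM at the end, though not in TPM, where means were 17.4 at late heart, 20.9 at late torpedo, 22.2 at bent cotyledon and 14.5 at mature green. Preglobular libraries held 1, 1 and 0 counts and globular libraries 0, 0 and 3. At early heart it measured 1.74, 6.77 and 9.17 CPM from 65, 311 and 378 counts, again with replicate 1 lowest. The pooled level was 156 times that at globular, with a 95% interval of 53.3 to 760 that covers counting error only (adjusted p = 2.75e-06). All 3 globular counts came from replicate 3, so without it the globular libraries held 0, and the step remained called (adjusted p = 2.04e-05). Late-heart libraries held 15.5, 14.2 and 17.9 CPM, all above early heart, a 2.68-fold rise (log2 fold change 1.42, SE 0.35, adjusted p = 0.0289).

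The early to late heart rise of YAB2 rested on few libraries. It was not called without early heart replicate 1 (log2 fold change 0.99, adjusted p = 0.0507), without early heart replicate 2 (adjusted p = 0.0682) or without any of the 3 late-heart libraries (adjusted p 0.0658 to 0.131), nor with only the early- and late-heart libraries fitted (adjusted p = 0.0709). Early torpedo held 15.2, 16.4 and 14.3 CPM, and late torpedo 29.1, 27.8 and 27.9 CPM, without overlap (log2 fold change 0.89, SE 0.34, adjusted p = 0.237; 0.0388 without early heart replicate 1). Bent cotyledon, at 28.2, 30.8 and 27.4 CPM, and mature green, at 31.8, 28.7 and 35.0 CPM, overlapped, and on log2(TPM + 1) this step was −0.58 and not called (limma, adjusted p = 0.0914). From late heart to mature green YAB2 rose 2.01-fold in scaled counts (log2 fold change 1.00, SE 0.34, adjusted p = 0.0130), while on the TPM scale its change was −0.25 on log2(TPM + 1), where the median of all tested genes was −0.85.

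**Figure D2:**
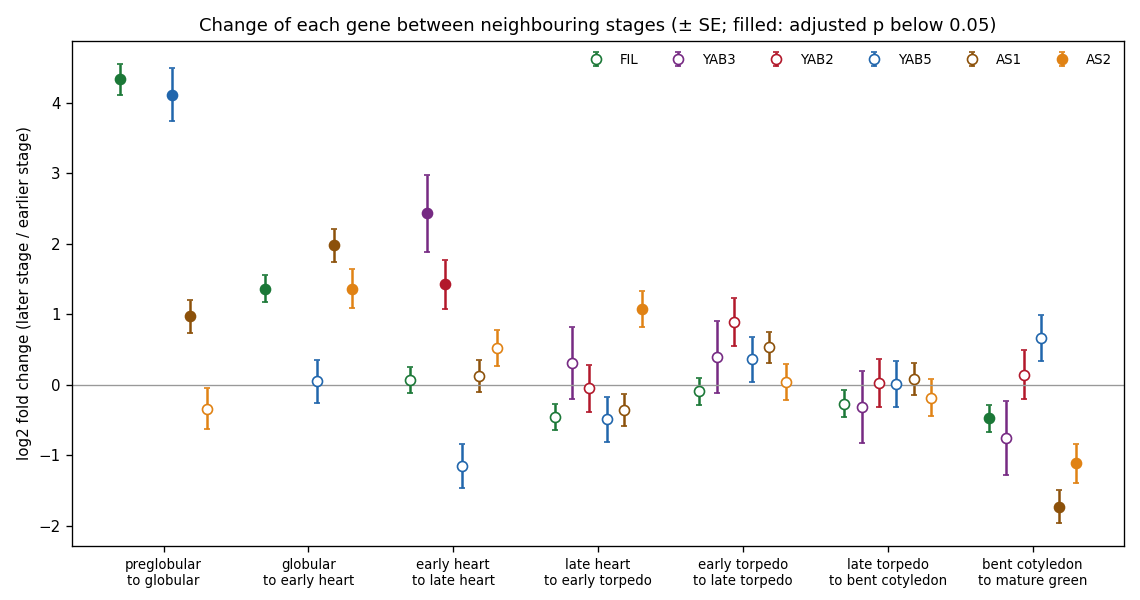
Log2 fold changes of the 6 genes (vertical axis, later over earlier stage) at the 7 steps between neighbouring stages, with SE. Filled points have an adjusted p below 0.05. The first 2 steps of YAB2 and YAB3 are left out because their libraries held 0 to 3 counts before early heart. Filled points above 0 are at the first 4 steps, those below 0 at the last one.

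AS1 was present from the start. Preglobular libraries held 11.4, 12.3 and 15.1 CPM and globular libraries 13.4, 31.4 and 31.3 CPM. Globular replicate 1 lay within the preglobular range, so the groups overlapped although the 1.96-fold rise was called (log2 fold change 0.97, SE 0.23, adjusted p = 0.00471). At early heart all libraries were higher, at 89.9, 103.3 and 106.7 CPM, a 3.94-fold rise (log2 fold change 1.98, SE 0.23, adjusted p = 2.22e-05). The antisense neighbour ACT1 had means of 132.4 CPM at globular and 108.7 CPM at early heart.

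AS1 then stayed between 74.2 and 133.7 CPM in all 12 libraries from late heart to bent cotyledon. Late heart held 119.9, 104.2 and 102.0 CPM, early torpedo 96.7, 74.2 and 83.5 CPM, late torpedo 110.3, 124.5 and 132.1 CPM, and bent cotyledon 128.9, 133.7 and 126.1 CPM, and none of these steps was called, but on log2(TPM + 1) AS1 changed by −0.82 from late heart to early torpedo (limma, adjusted p = 0.0145). Early torpedo replicate 2, the library that stood apart, was the lowest of them, and ACT1 was highest there among early torpedo libraries, at 118.7 CPM against 83.5 and 84.3. At mature green AS1 fell to 47.8, 41.4 and 27.8 CPM, below every library since early heart. The 3.32-fold fall (log2 fold change −1.73, SE 0.23, adjusted p = 2.33e-06) was −1.53 on the log2 scale without mature green replicate 3 (adjusted p = 3.17e-05). On log2(TPM + 1) it was −2.40, and from late heart to mature green −2.66 in place of −1.48 (limma, adjusted p = 6.43e-08 and 6.35e-09), where the medians of all genes were −0.44 and −0.85. ACT1 had means of 52.9 and 15.5 CPM at these stages, and its part in the AS1 value was not tested.

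AS2, the partner of AS1, rose at early heart and again at early torpedo. Preglobular libraries held 3.49, 4.22 and 1.22 CPM and globular libraries 2.09, 2.30 and 2.68 CPM, which overlapped, and AS2 was called as lower at globular when preglobular replicate 3 was left out (log2 fold change −0.75 in place of −0.34, adjusted p = 0.0216). At early heart it measured 5.40, 5.51 and 7.21 CPM, all above globular, a 2.57-fold rise (log2 fold change 1.36, SE 0.28, adjusted p = 0.00242). Late heart held 8.86, 8.65 and 8.45 CPM. The next rise, to 17.0, 19.9 and 17.8 CPM at early torpedo, was 2.11-fold with no overlap (log2 fold change 1.07, SE 0.26, adjusted p = 0.00843), and without early torpedo replicate 2 it was 1.01 on the log2 scale (adjusted p = 0.0300). On log2(TPM + 1) it was 0.52 and not called (limma, adjusted p = 0.0622), where the median of all genes was −0.32.

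AS2 held at 19.2, 16.6 and 20.5 CPM at late torpedo and 15.8, 18.6 and 15.0 CPM at bent cotyledon. It fell 2.17-fold to 7.10, 9.98 and 5.67 CPM at mature green, with no overlap (log2 fold change −1.11, SE 0.27, adjusted p = 0.00159). Without mature green replicate 3 that change was −0.94 (adjusted p = 0.0132). From late heart to mature green it was −0.19 and not called, but −1.29 and called on log2(TPM + 1) (limma, adjusted p = 2.06e-05). The falls of FIL, AS1 and AS2 at mature green went with a higher level of the endosperm marker EPR1 (means of 1.66 and 200.2 CPM). EPR1 was the only 1 of the 8 endosperm markers with a mean of 1 CPM or more there. TMM scaling factors at mature green were 0.5527 to 0.6281, the lowest of the series. The part of EPR1 and of the scaling in these falls was not tested.

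The first early-heart library carried a different balance of the 6 genes from the other two. In replicate 1, YAB3 was at 0.535 CPM against 13.0 and 16.0, YAB2 at 1.74 against 6.77 and 9.17, FIL at 166.2 against 210.8 and 204.5, and AS1 at 89.9 against 103.3 and 106.7. AS2 was at 5.40 against 5.51 and 7.21, close to replicate 2. YAB5, at 52.9 CPM against 39.6 and 40.8, was the member that was highest there. Of the 32 related genes only ARF3, which is high at globular, is given here. It was at 192.1 CPM in replicate 1 against 104.7 and 110.3. With that library left out, FIL, YAB2, YAB3, AS1 and AS2 still rose from globular to early heart (adjusted p 4.79e-13 to 0.00394), and the change of YAB5 was −0.10 in place of 0.05.

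The make-up of the YABBY transcripts shifted from 2 genes to 4. Levels of different genes are compared here in TPM, which divides by transcript length, and a share is that of the summed TPM of the 4 genes in a library. At globular FIL made up 57.2, 65.6 and 54.0% and YAB5 42.8, 34.4 and 45.8%, with YAB3 at 0 and YAB2 at 0, 0 and 0.137%. At late heart FIL stood at 72.2 ± 1.3% (SD, n = 3), YAB3 at 14.3 ± 0.38%, YAB5 at 8.30 ± 0.73% and YAB2 at 5.14 ± 0.67%. FIL had the largest share of the 4 in 23 of 24 libraries, the exception being preglobular replicate 1.

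After late heart the mean share of FIL was lower at each stage. It was 64.7 ± 2.5% at early torpedo, 55.2 ± 1.8% at late torpedo, 53.6 ± 0.45% at bent cotyledon and 47.0 ± 2.8% at mature green. YAB3 reached 26.2 ± 1.5% at late torpedo and was at 17.5 ± 0.95% at mature green. YAB2 made up 16.4 ± 0.77% and YAB5 19.1 ± 2.3% at mature green. The summed TPM of the 4 genes was 7.87, 4.07 and 3.06 at preglobular, 336.8 ± 41.9 at early heart, 339.2 ± 18.2 at late heart and 88.6 ± 8.43 at mature green.

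**Figure D3:**
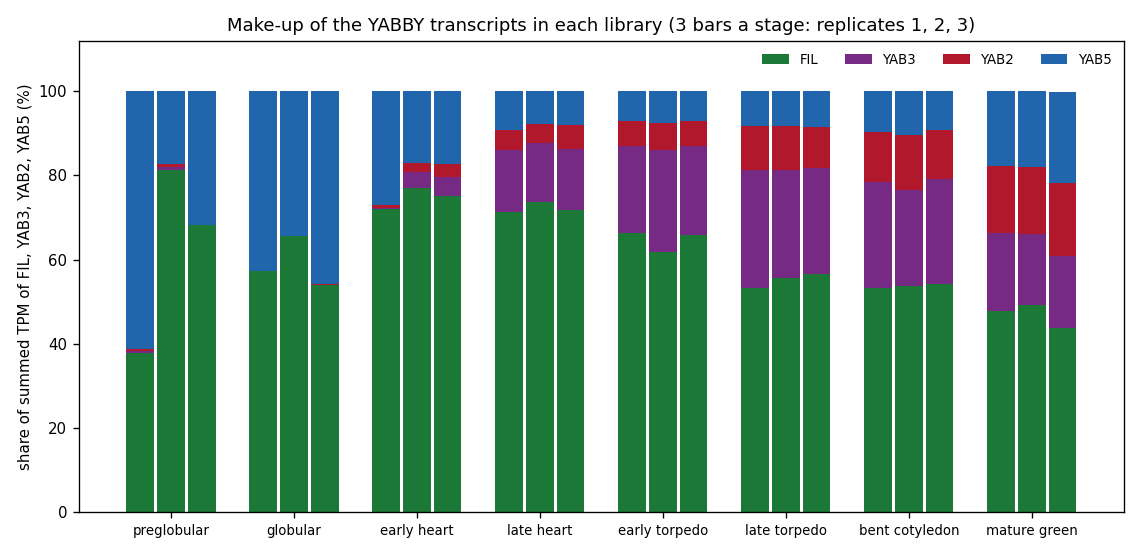
Share of each YABBY gene in the summed TPM of FIL, YAB3, YAB2 and YAB5 (vertical axis, %) in each of the 24 stage libraries, 3 bars a stage in the order of the replicates. FIL and YAB5 fill the globular bars, and all 4 genes are seen from early heart on, with FIL at 72.2% on average at late heart and 47.0% at mature green.

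Ratios within a library depend little on how libraries are scaled to each other, apart from the pseudocount where a gene is near 0. The 3 ratios below were tested over the 8 stages by permutation of the stage labels, on log2 of TPM + 0.5, with p adjusted over the 3 pairs. The FIL to YAB3 ratio had a mean log2 of 2.65 at preglobular, 7.23 at globular, 2.32 at late heart, 1.07 at late torpedo and 1.39 at mature green (permutation p = 1e-05, the smallest possible, adjusted p = 1.5e-05). The YAB2 to YAB5 ratio had a mean log2 of −2.02 at preglobular, −6.58 at globular, −0.68 at late heart and −0.25 at early torpedo, turned to 0.26 at late torpedo and 0.30 at bent cotyledon, and was −0.21 at mature green (permutation p = 1e-05, the smallest possible, adjusted p = 1.5e-05). With YAB3 and YAB2 at 0 to 3 counts in the preglobular and globular libraries, the size of both ratios at these stages is set by the pseudocount. The permutation tests of both ratios include these libraries, so their p-values do not speak to the later stages alone. YAB2 exceeded YAB5 in 6 of the 6 libraries of late torpedo and bent cotyledon. The AS1 to AS2 ratio had a mean log2 of 1.21 at preglobular and 3.15 at early heart and stood at 1.42 at early torpedo, 2.22 at bent cotyledon and 1.47 at mature green (permutation p = 0.00043, adjusted p = 0.00043).

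The related genes of leaf polarity were described from a list of 32, of which 31 passed the filter on low counts and INO did not. Over the step from globular to early heart 13 of the 31 rose and 1 fell, where 17.6% of all genes were called, with a median log2 fold change of 0.49 beside 0.04 over all genes tested. From preglobular to globular 10 rose and 4 fell (23.6% of all genes), and from late heart to mature green 5 rose and 15 fell, a share near the 67% of all genes. From late heart to early torpedo 2 rose and 8 fell (19% of all genes), but 5 fell without early torpedo replicate 2, the library that stood apart. Leaving out the second late-heart library also left 5 that fell, and leaving out the first left 3. The list was drawn up with earlier results of these data known, so its counts are a description. Some calls below were lost when 1 library was left out. From preglobular to globular this held for KAN1 (3 libraries) and SLK1 (5), each number being the libraries whose loss ended the call. From globular to early heart it held for ARF3 (3), DCL4 (7), PHB (4) and PHV (19). From late heart to early torpedo it held for KNAT1 (6), RDR6 (4), SLK1 (9), WOX3 (5) and ARF3 (1). From late torpedo to bent cotyledon it held for LUG (3), and from bent cotyledon to mature green for SGS3 (2).

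CRC and INO, the YABBY genes of the carpel and the ovule, reached no more than 2.40 and 0.329 CPM in any library. CRC held no more than 0.115 CPM in any library up to late heart, rose to 1.81, 1.68 and 1.79 CPM at early torpedo (adjusted p = 0.000533) and was at 0 to 0.0762 CPM at mature green. Of the 5 genes for YABBY co-repressors, LUG, LUH, SEU, SLK1 and SLK2, SLK1 rose at the first step, where 23.6% of all genes were called. None was called from globular to early heart, where 17.6% of all genes were, and with 5 genes this is not read as a difference. LUG, for example, had means of 104.9 ± 4.08 and 121.9 ± 6.61 CPM (SD, n = 3; log2 fold change 0.22, adjusted p = 0.341). LUG and SLK1 fell from late heart to early torpedo, 2 of 5 where 19% of all genes were called. LUG, SEU and SLK2 rose from late torpedo to bent cotyledon, 3 of 5 where 33.3% were called. SLK2 went from 31.5 ± 5.51 CPM at late torpedo to 67.0 ± 7.32 at bent cotyledon (adjusted p = 0.000117). From bent cotyledon to mature green 2 of the 5 rose and LUG fell, where 55.4% were called. SLK2 was 1 of the 2 that rose, to 135.9 ± 21.1 CPM (adjusted p = 6.76e-05).

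From preglobular to globular, the step at which FIL and YAB5 rose, KAN1, KAN2, KAN4 and ARF3 rose, 4 of 6 where 11.4% of all genes were called as higher, and ARF4 and KAN3 were not called. KANADI proteins are abaxial repressors of the adaxial programme and ARF3 and ARF4 are auxin response factors that act with them. KAN2 went from 9.88 ± 5.15 to 37.1 ± 3.60 CPM (log2 fold change 1.91, adjusted p = 2.12e-05) and ARF3 from 100.7, 82.4 and 84.2 CPM to 232.9, 228.2 and 185.1 CPM (log2 fold change 1.27, adjusted p = 5.39e-05). KAN3 rose from globular to early heart, with YAB2 and YAB3, from 0.427, 0.509 and 0 CPM to 0.855, 2.46 and 2.98 CPM (adjusted p = 0.00342). ARF3 fell at 4 later steps, among them early to late heart, where it went from 135.7 ± 48.9 to 59.1 ± 7.43 CPM (log2 fold change −1.20, adjusted p = 0.00111).

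Among the adaxial class III HD-ZIP genes, PHB, REV and CNA fell from preglobular to globular, and PHB, PHV, REV and HB8 rose from globular to early heart. PHB, for example, had 91.0 ± 14.2, then 52.1 ± 8.31, then 72.4 ± 6.66 CPM (log2 fold changes −0.80 and 0.47, adjusted p = 0.000212 and 0.0189). Of the 4 genes of the ta-siRNA pathway, which limits ARF3 and ARF4, RDR6 fell from late heart to early torpedo (adjusted p = 0.026). AGO7, RDR6 and SGS3 fell from bent cotyledon to mature green, AGO7 from 18.9 ± 4.52 to 7.57 ± 2.05 CPM (adjusted p = 0.000401). DCL4 rose at the first 2 steps.

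The class 1 KNOX genes, the known targets of AS1 and AS2 in leaves, were measured in the same embryos. STM, KNAT2 and KNAT6 rose from preglobular to globular, as AS1 did and AS2 did not, and STM and KNAT1 rose from globular to early heart, with AS1 and AS2. STM had no counts at preglobular and 22.8 ± 2.85 CPM at early heart, its highest mean. KNAT1 went on from 7.56 ± 2.95 CPM at late heart to 16.9 ± 5.06 at early torpedo (log2 fold change 1.17, adjusted p = 0.0398), the step at which AS2 also rose. STM fell at that step, so 1 of the 4 genes rose and 1 fell, where 19% of all genes were called. KNAT1 fell from 27.5 ± 5.55 CPM at bent cotyledon to 8.02 ± 1.77 at mature green (log2 fold change −1.78, adjusted p = 0.000778). KNAT6 was highest at globular, at 50.8 ± 1.88 CPM.

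Among genes tied to AS2 or to the leaf margin, BOP1, BOP2 and LBD30 (JLO) rose from globular to early heart and HIRA was not called. BOP2, an activator of AS2 in leaves, went from 2.79 ± 2.37 to 20.1 ± 4.31 CPM (log2 fold change 2.84, adjusted p = 0.00055), and LBD30, a LOB-domain relative of AS2, had no counts in the preglobular and globular libraries. WOX1 and WOX3, homeobox genes of blade outgrowth, rose over the same step. WOX1 had 0.0399 ± 0.0691 CPM at globular, 1.00 ± 0.271 at early heart, 3.39 ± 0.531 at late heart and 16.1 ± 3.17 at mature green, and its early to late heart rise was called (adjusted p = 0.00538). WOX3 peaked at 11.8 ± 0.854 CPM at late heart and fell to early torpedo (adjusted p = 0.0289).

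**Figure D4:**
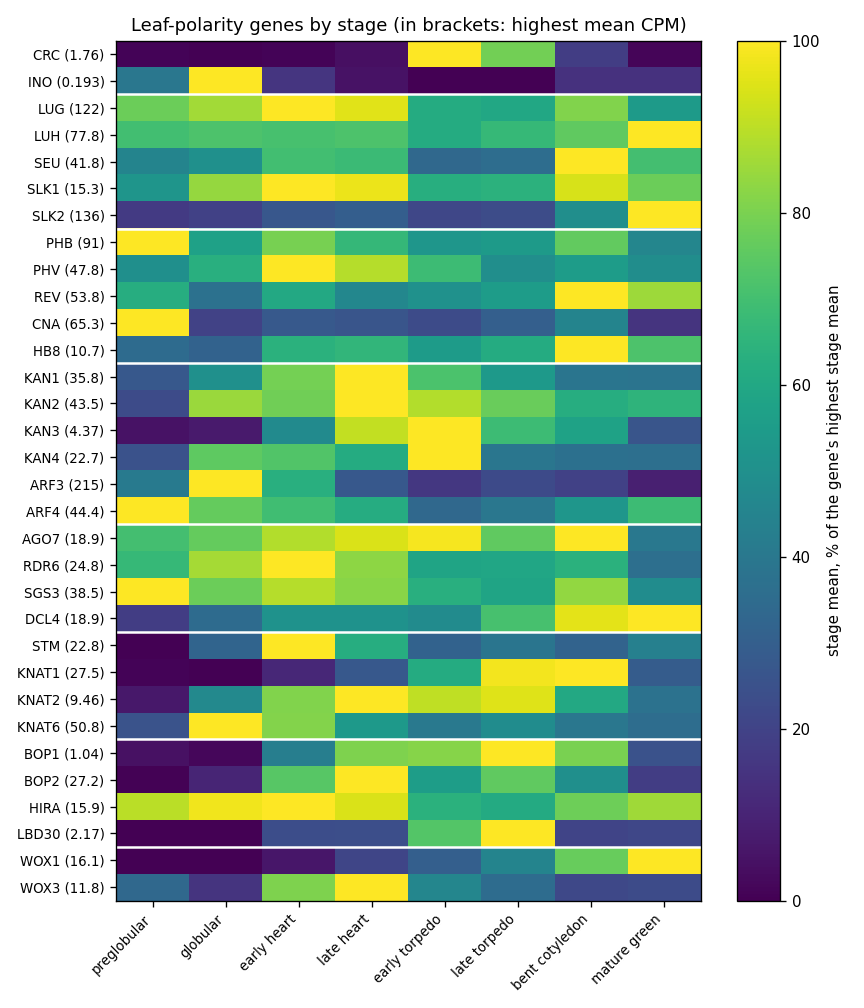
Stage means of the 32 related genes, each as a percentage of its own highest stage mean (colour), at the 8 stages (columns). Numbers in brackets are the highest mean CPM, and white lines part the groups. ARF3 and KNAT6 are brightest at globular, BOP2 and WOX3 at late heart, and KNAT1 and WOX1 at the later stages.

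The genes whose stage means ran most like each of the 6 were found among 6504 genes with a symbol and at least 10 CPM at some stage, by Pearson's r of log2(CPM + 1) over the 8 stage means. For FIL they were KNAT3 (r = 0.989), a class 2 KNOX gene, AN3 (r = 0.983), a co-activator of leaf cell division, and THA2 (r = 0.978). For YAB3 they were the homeobox genes HDG1 (r = 0.990) and HB33 (r = 0.988) and the MADS-box gene AGL87 (r = 0.985). For YAB2 they were RNR2A, EMB3135 and VIT1 (r = 0.985 to 0.988), and for AS1 BCAT-1, GNC and ATG13 (r = 0.985 to 0.991). For AS2 they were DIN4 (r = 0.991), KNAT1 (r = 0.982) and AHP2 (r = 0.980). YAB5 had the least close neighbours, NAC050, TRM12 and CKL6 (r = 0.927 to 0.932). With 8 points from the same libraries these values only rank genes.

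YAB2 and AS1 have 1 transcript model each, and the other genes of the 6 have more. FIL was read almost wholly as its 1115-base first model, at 91.3 to 98.5% of the locus TPM on average at each stage. AS2 has 5 models with 1 coding sequence, and the fifth made up 79.5 to 91.0% on average. YAB5 was divided between a model of 882 bases at 60.4 to 70.4% and one of 1126 bases from globular on, both with the same coding sequence, and the 882-base model made up 57.3, 2.98 and 86.2% in the preglobular libraries. The first model of YAB3 made up 84.0, 80.2 and 76.9% at late heart, 55.0, 60.7 and 58.4% at late torpedo and 73.5, 89.6 and 79.6% at mature green, and at bent cotyledon the libraries ranged from 56.3 to 90.0%. These shares rest on kallisto's division of reads between models and were not tested.

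The diluted bent-cotyledon RNA was compared within Smart-seq2. None of the 6 genes was called at 1, 0.5 or 0.1 ng against 5 ng, with 0 at an unadjusted p below 0.05 and 0 by DESeq2, while 0%, 0% and 0.205% of the 17090 genes tested were called, 35 genes at 0.1 ng and none of those with the replicate block. FIL, for example, had 115.9 ± 1.43 CPM at 5 ng and 117.9 ± 13.9 at 0.1 ng (SD, n = 3), and AS2 16.7 ± 2.02 and 10.8 ± 3.57 CPM (log2 fold change −0.57, SE 0.33, adjusted p = 0.628). Replicates lay farther apart at 0.1 ng for some of the genes. YAB5 held 18.3, 20.3 and 17.2 CPM at 5 ng and 33.5, 16.6 and 10.6 CPM at 0.1 ng, the last from 11 counts, and AS1 went from an SD of 4.39 to 36.8 CPM.

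The kits had 1 library at each input and so no test. With Ovation 5 of the 6 genes were lower by 4-fold or more than the Smart-seq2 mean at all 4 shared inputs, on log2(TPM + 0.5). So were 63.6% of the 16590 genes compared, which are those with a Smart-seq2 mean of at least 1 TPM at 5 ng. They were taken in by their Smart-seq2 level, so their shares and medians can lean towards lower in the kits. FIL measured 7.46, 6.93, 6.53 and 9.43 TPM at 5, 1, 0.5 and 0.1 ng, where Smart-seq2 libraries held 76.7 to 113.0 TPM. AS1 was the exception, at 18.4, 21.6, 16.2 and 12.9 TPM against 32.1 to 70.5, which is 2.80- to 3.70-fold lower. The median of the compared genes was −2.70 to −2.97 on the log2 scale. The share of Ovation counts on targets other than the loci was 22.7 to 25.0%, and 0.699 to 7.18% in the stage libraries.

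With SMARTer none of the 6 was lower by 4-fold at all 4 inputs, against 1.32% of the same compared genes. None was higher by as much, against 0.157%. FIL lay above every Smart-seq2 library at each shared input, at 197.8, 160.2, 125.2 and 193.5 TPM. At 0.1 ng YAB5 rested on 1 count and AS2 on 2, at 0.126 and 0.1998 TPM, while YAB2 stood at 57.2 TPM, above all Smart-seq2 libraries. The median of the compared genes against Smart-seq2 was −2.41 on the log2 scale at 0.1 ng and −0.103 to −0.533 at the higher inputs. At 0.05 ng YAB5 had 0 counts, AS1 was at 8.14 TPM and AS2 at 24.8 TPM. At 5 ng FIL, AS1, YAB3, YAB2, AS2 and YAB5 followed each other at 197.8, 84.9, 52.9, 19.7, 14.3 and 13.2 TPM, and at each lower input the order was a different one.

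**Figure D5:**
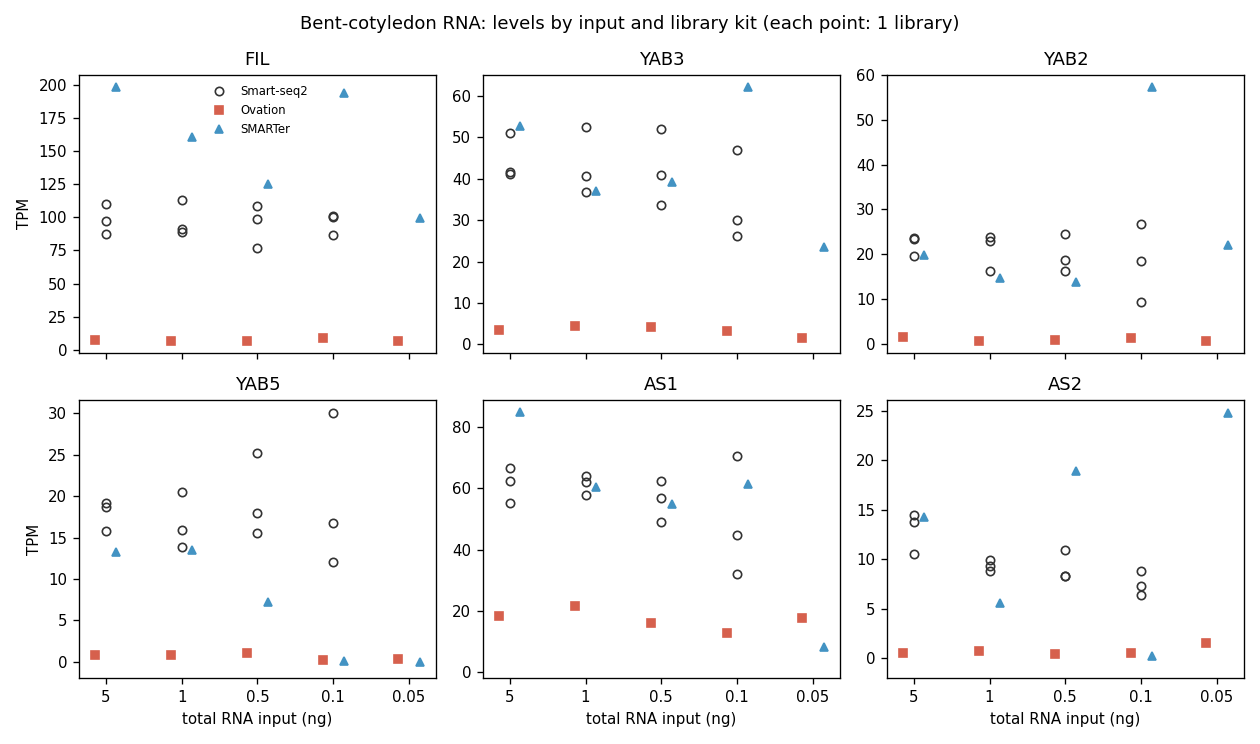
TPM of the 6 genes (vertical axes, each panel with its own range) in bent-cotyledon RNA by input (horizontal axis, ng), each point 1 library. Open circles are the 3 Smart-seq2 libraries at an input, squares Ovation and triangles SMARTer. Ovation squares lie below the circles in every panel, and the triangles of YAB5 and AS2 reach 0.126 and 0.1998 TPM at 0.1 ng.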

How the data were processed

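Paired-end reads of 50 bases were made from embryo RNA. Cutadapt 1.9.1, kallisto 0.43.1 and build TAIR10 are named in the submitters' processing notes; other settings are not given in the sources used here. The authors deposited 43 tables of estimated counts (not scaled), TPM and effective length per transcript, the last a number in bases used in 1 alternative. Values were summed over the transcripts of each locus, and summed counts rounded to whole numbers. RefSeq's TAIR10.1 annotation, which gave positions, gene models and sequence, has the same length for 53198 of 53400 nuclear transcripts (99.6%) and for 13 of 13 here. In the stage libraries 0.699 to 7.18% of counts lay outside the loci and stayed out of the tests.

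The test on counts was edgeR's quasi-likelihood test (version 4.0.16, R 4.3.3) after filterByExpr and TMM, with 24 stage libraries in 1 fit (21014 genes) and 12 input libraries in another (17090), and Benjamini-Hochberg adjustment. SE is the log2 fold change over the root of F. The fits were tested on simulated data. Folds against no counts are bounds against 3 counts over the group, and amplified reads are not independent molecules. TPM ratios were tested with 100000 permutations. Alternatives were RLE, DESeq2 1.42.0, no filter, limma 3.58.1 on log2(TPM + 1) and log2(TPM + 0.1), a fit restricted to the compared groups, a replicate block, 1 ng for bent cotyledon, a length offset and each library left out. Summaries and figures used Python 3.11.15 (pandas 2.3.3, numpy 2.4.6, matplotlib 3.10.9, scipy 1.17.1).

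The 6 genes and the related lists were chosen with earlier results of these data known. Named genes are the 6, members of the related lists where their group is described, and for each of the 6 the 3 genes most like it. Input libraries of the same number are paired, since by their labels they are dilutions of 1 RNA (mean residual correlation 0.191 within a number and −0.0951 between numbers).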

Additional observations from a re-analysis of the deposited data

How the results depend on the processing

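The rises of FIL and YAB5 at globular, those of FIL, YAB2, YAB3, AS1 and AS2 at early heart and the falls of AS1 and AS2 at mature green kept their direction and call in every alternative run. Limma on TPM changed the scale and the test together. On log2(TPM + 1) the median of all genes moved by 0.348, 0.245, −0.315, −0.438, 0.16 and −0.848 from preglobular to globular, globular to early heart, late heart to early torpedo, bent cotyledon to mature green, globular to late heart and late heart to mature green. The share of calls that were higher went from 48.5 to 88.8%, 48.7 to 86.0%, 69.7 to 10.8%, 49.1 to 20.3%, 52.8 to 72.7% and 48.7 to 17.6% at these comparisons, and from 49.7 to 37.2% from early to late heart. Genes called went from 4961 to 9575 (9333 with 0.1 added) at the first step, from 3698 to 5669 at the next, from 515 to 798 from early to late heart, from 4000 to 9194 (8368) from late heart to early torpedo and from 238 to 631 from early to late torpedo. Members called went from 1 to 3 (2) from late heart to early torpedo and from 3 to 5 from late heart to mature green. With 1 and with 0.1 added, signs turned for AS2 from preglobular to globular (0.198, 0.344), FIL from early to late heart (−0.0325 in both), YAB3 from late heart to early torpedo (−0.154, −0.157), AS2 from early to late torpedo (−0.0644, −0.0688), YAB2 and YAB5 from bent cotyledon to mature green (−0.582 and −0.0791, −0.612 and −0.0833) and YAB2 and YAB5 from late heart to mature green (−0.246 and −0.704, −0.26 and −0.733), where −0.704 was called (adjusted p = 0.033).

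DESeq2 called 1008 genes from early to late heart, 699 from early to late torpedo, 1 at 0.5 ng and 434 at 0.1 ng (18.7% of them higher, against 0% of 35), and RLE factors called 15 at 0.1 ng. With only the groups compared, 2006, 2040 and 3 genes were called at early to late heart, late heart to early torpedo and early to late torpedo, and 1 (YAB5, with YAB2 and YAB3 lost), 3, 5 and 5 members at early to late heart, late heart to early torpedo, bent cotyledon to mature green and late heart to mature green. With no filter 1 gene was called at 0.5 ng. With 1 ng libraries for bent cotyledon 151 genes were called from early to late torpedo, and YAB2 and YAB5 turned to −0.0095 and −0.0919 from late torpedo to bent cotyledon. AS2 from early to late torpedo turned to −0.0229 with no filter and −0.0242 with a length offset, and YAB3 at 1 ng to −0.0031 (RLE), −0.003 (DESeq2) and −0.0017 (no filter). The causes were not tested.

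The replicate block changed no call of the 6 genes. At 0.1 ng it left 0 genes called in place of 35, and YAB2 at 0.5 ng turned to 0.0175. Across stages the same number did not pair libraries (mean residual correlation −0.0217, over 0.1 in 8 of 84 pairs).

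With 1 library left out, genes called ranged from 3305 to 5848, 1892 to 4651, 173 to 781, 1321 to 4981 and 44 to 1176 at the first 5 steps, from 0 to 1 at 0.5 ng and from 0 to 735 at 0.1 ng. Members called ranged from 0 to 3 from early to late heart, 1 to 2 at the next step and 0 to 1 from early to late torpedo. Signs turned for YAB2 from preglobular to globular (−2.76 to 1.05), YAB5 from globular to early heart (−0.0971 to 0.19), FIL from early to late heart (−0.0349 to 0.129), YAB2 from late heart to early torpedo (−0.126 to 0.0421), AS2 from early to late torpedo (−0.0285 to 0.122), and YAB2 and YAB5 from late torpedo to bent cotyledon (−0.0219 to 0.0687 and −0.0538 to 0.063). At inputs they turned for YAB2 (−0.12 to 0.0461) and YAB3 (−0.045 to 0.0335) at 1 ng, YAB2 (−0.0845 to 0.129) at 0.5 ng, and FIL (−0.0785 to 0.104), YAB2 (−0.789 to 0.0807) and YAB5 (−0.384 to 0.43) at 0.1 ng, none of them called in the full data. Before early heart each library held 0 to 3 counts of YAB2 and of YAB3, which limits how well the size of their changes there is known. In total these libraries held at least 17769463 estimated counts, above the 8432892 to 11552331 of bent cotyledon at 5 ng.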
